A study of Mus musculus with 12 samples.

Results

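The genes described here are 33 transcripts best known from the nervous system: 18 neuronal genes of the cytoskeleton, axon outgrowth, synapse and RNA binding, 2 neural adhesion molecules, 7 genes of neural progenitors and 6 genes of glia. They were listed by name and read from an array study of fat cells, and all 33 were measured among the 19938 genes analysed. On Affymetrix arrays the study profiled total RNA from 4 groups, with biological triplicates in each, 12 arrays in all. Adipocytes had been differentiated from 3T3-L1 cells, an established mouse fibroblast line used as a model of fat cell formation, from primary mouse embryonic fibroblasts (PMEF, a mixed primary population) and from embryonic stem (ES) cells of the mouse. The remaining group, eWAT, was epididymal white adipose tissue from healthy wild-type mice, and its RNA comes from every cell type in the tissue, nerves and vessels included. The labels name no added gene or genotype for the cultures and no strain or age for the mice. Precision is limited by having 3 arrays a group, and the p-values measure the spread between these samples. The source of the cells and how each was cultured cannot be told apart. In bulk RNA, fewer cells of a type and less RNA per cell cannot be told apart.

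Neurons and glia arise from neuroepithelial progenitors that carry transcription factors of the Sox and Pax families, and embryonic stem cells give rise to such progenitors readily unless they are directed elsewhere. Young neurons express microtubule regulators such as doublecortin and stathmins, then neurofilament subunits, then proteins of the synaptic vesicle. Fat tissue is innervated by sympathetic and sensory fibres, which bring axons and their Schwann cells into the tissue, while the nerve cell bodies, which hold most of the RNA, lie outside it. In many other cell types the repressor Rest keeps neuronal genes silent.

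All groups carried the fat cell markers Adipoq and Fabp4. Adipoq (adiponectin) had mean log2 intensities of 12.44 in eWAT, 12.21 in ES, 11.99 in PMEF and 11.49 in 3T3-L1 adipocytes, and Fabp4 lay between 12.40 and 12.60. Of 9 fat cell markers, 6 were called lower in ES adipocytes than in eWAT, 9 in PMEF and 8 in 3T3-L1 adipocytes. Of all genes, 20.9%, 21.6% and 22.5% were called lower. Lep (leptin) was among them, at 10.44 in eWAT and at 4.52 to 6.58 by group mean in the cultures. Cebpa was at 7.57 in 3T3-L1 adipocytes and 10.43 in eWAT. The values are log2 intensities as deposited, and a probe set's level cannot be set against that of another. For orientation, 95% of 1178 olfactory and vomeronasal receptor genes, best known from sensory epithelia, had group means under a line of 5.07 to 5.24, depending on the group. Lep was under that line in 3T3-L1 adipocytes, at 4.52 against 5.12. By that line 28 of the 33 neural genes stood over the receptor range in ES adipocytes, 20 in PMEF, 18 in eWAT and 16 in 3T3-L1 adipocytes, against 68.2% to 71.5% of all genes. The line is rough: with the 99th percentile in its place the counts were 15 in ES, 8 in PMEF, 12 in eWAT and 5 in 3T3-L1 adipocytes. The share of all genes over the 99th percentile was not computed. Tests are limma contrasts over all 12 arrays with Benjamini-Hochberg adjustment over all genes, called at an adjusted p under 0.05. Differences are on the log2 scale with the standard error (SE) and 3 arrays per group. Rose and fell, and called higher or lower, mean that the first group named differed from the second by this test. Many genes pass it in each comparison, so counts of at least 2-fold changes are given too. One array stood apart for these genes. ES array 2 was the highest of the 3 ES arrays for 17 of the 18 neuronal genes, while it was the highest for 36.4% of all genes. Counts for ES adipocytes, and values of several genes, are therefore also given without it.

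**Figure D1:**
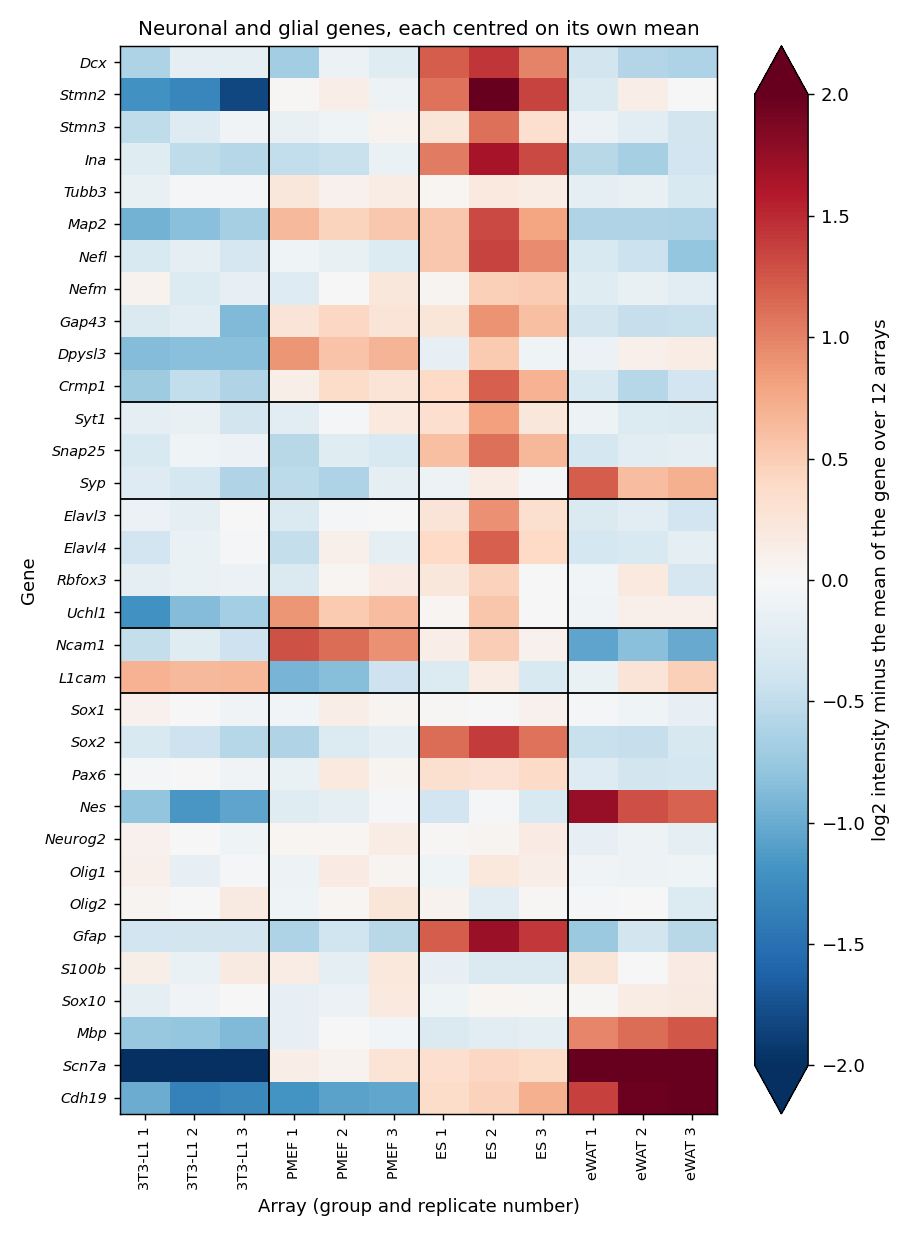
Log2 intensity of the 33 genes on the 12 arrays, each gene centred on its own mean, with colours saturating at 2 in either direction. Rows follow the gene groups in the order cytoskeleton and outgrowth, synapse, RNA binding with Uchl1, adhesion, progenitor and glia. ES arrays are warm over most neuronal rows and for Sox2 and Gfap, and eWAT arrays for Syp, Nes, Mbp, Scn7a and Cdh19.

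In ES adipocytes 13 of the 33 genes were called higher than in each of the other 3 groups, against 6.15% of all genes: Dcx, Stmn2, Stmn3, Ina, Nefl, Crmp1, Syt1, Snap25, Elavl3, Elavl4, Sox2, Pax6 and Gfap. Of these, 10 are neuronal, 2 are progenitor factors and 1 is glial. Without ES array 2 there were 11, since Crmp1 and Syt1 no longer passed against PMEF adipocytes (adjusted p = 0.0683 and 0.064). Without PMEF array 1 there were also 11. Of the 13 genes, Dcx, Ina, Nefl, Syt1, Elavl4, Sox2, Pax6 and Gfap were over the receptor line in ES adipocytes only. The sizes of their rises are therefore rough. Even in ES adipocytes, the means of Dcx, Nefl, Crmp1, Syt1, Elavl4, Sox2 and Pax6 were under the 99th percentile of the receptor genes, 6.0. In the other groups, eWAT had 5 genes called highest (10.7% of all genes) and 2, Ncam1 and Pax6, called lowest (10.3%). PMEF adipocytes had 3 highest (8.47%) and 1 lowest (6.31%), 3T3-L1 adipocytes 1 highest (14.5%) and 6 lowest (8.63%), and ES adipocytes 1 lowest (3.36%). Against eWAT, ES adipocytes had 19 of the 33 genes called higher, where 28.8% of all genes were, and 6 called lower, where 20.9% were. Of the 33 genes, 11 rose and 4 fell at least 2-fold, against 4.39% and 5.86% of all genes. The median difference was 0.55, and 0.04 over all genes. Without ES array 2 the counts were 19 and 7.

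The sequences of a few promoters are shown because the genes move with the groups in different ways. Ina and Gfap lead the ES adipocytes, and Crmp1 is high in ES and intermediate in PMEF adipocytes. Tubb3 moved little, and Scn7a is highest in the tissue. Each window, from RefSeq on GRCm38.p6, runs from 250 bases before to 50 bases after the annotated start, 5′ to 3′ on the strand of the gene. Capitals mark the left and right elements of the site that Rest binds, searched on both strands as TCAGCAC and GGACAGC, and the matches shown lie on the opposite strand, so they read GTGCTGA and GCTGTCC and do not overlap. The windows are chr19:47014431-47014730 (plus strand) for Ina, chr11:102897151-102897450 (minus) for Gfap, chr5:37241808-37242107 (plus) for Crmp1, chr8:123411303-123411602 (plus) for Tubb3 and chr2:66784861-66785160 (minus) for Scn7a.
Ina: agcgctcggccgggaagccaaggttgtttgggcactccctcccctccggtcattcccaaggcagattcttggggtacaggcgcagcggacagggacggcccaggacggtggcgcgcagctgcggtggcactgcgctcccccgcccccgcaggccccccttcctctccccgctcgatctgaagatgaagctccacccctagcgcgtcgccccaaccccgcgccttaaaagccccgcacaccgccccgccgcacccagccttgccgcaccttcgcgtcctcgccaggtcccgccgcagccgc
Gfap: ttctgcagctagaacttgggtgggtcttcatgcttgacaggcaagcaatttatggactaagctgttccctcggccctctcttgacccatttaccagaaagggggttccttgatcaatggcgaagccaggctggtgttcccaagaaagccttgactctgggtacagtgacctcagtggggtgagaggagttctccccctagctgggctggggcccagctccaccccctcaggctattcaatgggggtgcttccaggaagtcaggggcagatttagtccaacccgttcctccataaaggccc
Crmp1: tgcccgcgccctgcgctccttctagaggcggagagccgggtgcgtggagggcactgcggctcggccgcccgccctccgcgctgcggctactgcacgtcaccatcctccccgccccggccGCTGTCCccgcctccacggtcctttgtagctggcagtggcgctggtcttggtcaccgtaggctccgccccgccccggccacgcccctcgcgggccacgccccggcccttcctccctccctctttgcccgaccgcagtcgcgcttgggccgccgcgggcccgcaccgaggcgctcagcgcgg
Tubb3: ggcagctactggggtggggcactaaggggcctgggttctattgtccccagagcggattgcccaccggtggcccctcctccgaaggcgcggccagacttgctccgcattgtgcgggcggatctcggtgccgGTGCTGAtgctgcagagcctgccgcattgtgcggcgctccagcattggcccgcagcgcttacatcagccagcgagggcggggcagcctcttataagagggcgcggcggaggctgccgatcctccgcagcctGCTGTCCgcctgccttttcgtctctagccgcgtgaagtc
Scn7a: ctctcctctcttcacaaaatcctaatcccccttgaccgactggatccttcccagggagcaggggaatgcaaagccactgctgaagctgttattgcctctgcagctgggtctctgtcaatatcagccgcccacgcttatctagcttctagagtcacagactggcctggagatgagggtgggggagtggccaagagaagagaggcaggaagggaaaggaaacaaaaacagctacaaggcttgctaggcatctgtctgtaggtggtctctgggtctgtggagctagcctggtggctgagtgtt

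Promoters were found for 22 of the 33 genes, in 30 windows. The left element TCAGCAC lay in windows of 2 of these genes, Olig2 and Tubb3, and in 5.12% of all 32851 windows. GGACAGC lay in windows of 3 of them, Crmp1, Map2 and Tubb3, and in 6.56% of all windows. The Crmp1 match starts 131 bases before the start site, on the opposite strand, in the window shown. A second Crmp1 window, not shown, held neither element. Tubb3 has both elements, on the opposite strand, one starting 120 bases before and the other 11 bases after the start site. The joined pattern TCAGCACNNNGGACAGC was in none of the members' windows and in 6 of all windows. The same windows differ in base composition. The Ina window is 71.7% G and C with 32 CpG dinucleotides, and the Crmp1 window shown is 77.0% with 41. The second Crmp1 window has 61.0% with 20. Gfap and Scn7a have 55.7% and 54.0% with 3 each. The median window has 52.7% and 7.0 CpG.

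Among the 11 genes of the neuronal cytoskeleton and of axon outgrowth, 10 were called higher in ES adipocytes than in eWAT and none lower. Of all genes, 28.8% were called higher and 20.9% lower. The median difference of the 11 genes was 1.19, and 0.04 over all genes. Ina encodes alpha-internexin, an intermediate filament subunit of neurons. Its log2 intensities were 6.46, 7.07 and 6.73 in the ES arrays, 5.17, 4.91 and 4.84 in 3T3-L1, 4.92, 4.97 and 5.29 in PMEF adipocytes and 4.86, 4.76 and 5.03 in eWAT. Every ES array lay over every other array. The rise over eWAT was 1.87 ± 0.15 (SE, adjusted p = 2.08e-07), and 1.71 without ES array 2. Its size is rough, since Ina was under the receptor line in every group but ES adipocytes. The second probe set of Ina, with means of 6.64 in ES adipocytes and 3.73 to 4.01 elsewhere, showed the same groups apart by more.

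Dcx, the microtubule protein of migrating young neurons, was at 5.78, 6.0 and 5.57 in the ES arrays and between 3.87 and 4.45 on the other 9. It rose by 1.74 ± 0.16 over eWAT (adjusted p = 8.82e-07), and by 1.63 without ES array 2. The other groups could not be told apart for Dcx, with differences among them of 0.19 or less and adjusted p of 0.357 or more. Stmn2, a stathmin that destabilises microtubules in growth cones, gave 7.33, 8.25 and 7.59 in ES adipocytes. It was at 6.27, 6.37 and 6.15 in PMEF adipocytes and at 5.96, 6.37 and 6.25 in eWAT, which overlap, and at 5.03, 4.94 and 4.43 in 3T3-L1 adipocytes, where it was called lowest. Stmn2 thus followed an order that Dcx and Ina did not, with 3T3-L1 adipocytes at -1.39 ± 0.21 relative to eWAT (adjusted p = 5.39e-05). Its rise in ES adipocytes was 1.53 ± 0.21 over eWAT (adjusted p = 3.08e-05), and 1.26 without ES array 2. Stmn3, the related stathmin, rose by 0.80 ± 0.19, and by 0.53 without that array. Its other probe set stayed at 3.12 to 3.21 in all groups and showed no such difference.

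Neurofilaments were unequal. Nefl, the light chain, rose by 1.45 ± 0.17 in ES adipocytes over eWAT (adjusted p = 7e-06), and by 1.25 without ES array 2. Nefm, the medium chain, rose by 0.55 ± 0.14, but its ES arrays, at 3.84, 4.26 and 4.29, overlapped those of 3T3-L1 and PMEF adipocytes and lay in the range of the receptor genes. Tubb3, the tubulin most used to mark neurons, was under the receptor line in every group, with means of 4.37 to 4.75. It rose by 0.34 ± 0.07 in ES and 0.38 ± 0.07 in PMEF adipocytes over eWAT, and ES and PMEF adipocytes did not differ by the test (-0.04 ± 0.07, adjusted p = 0.719).

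**Figure D2:**
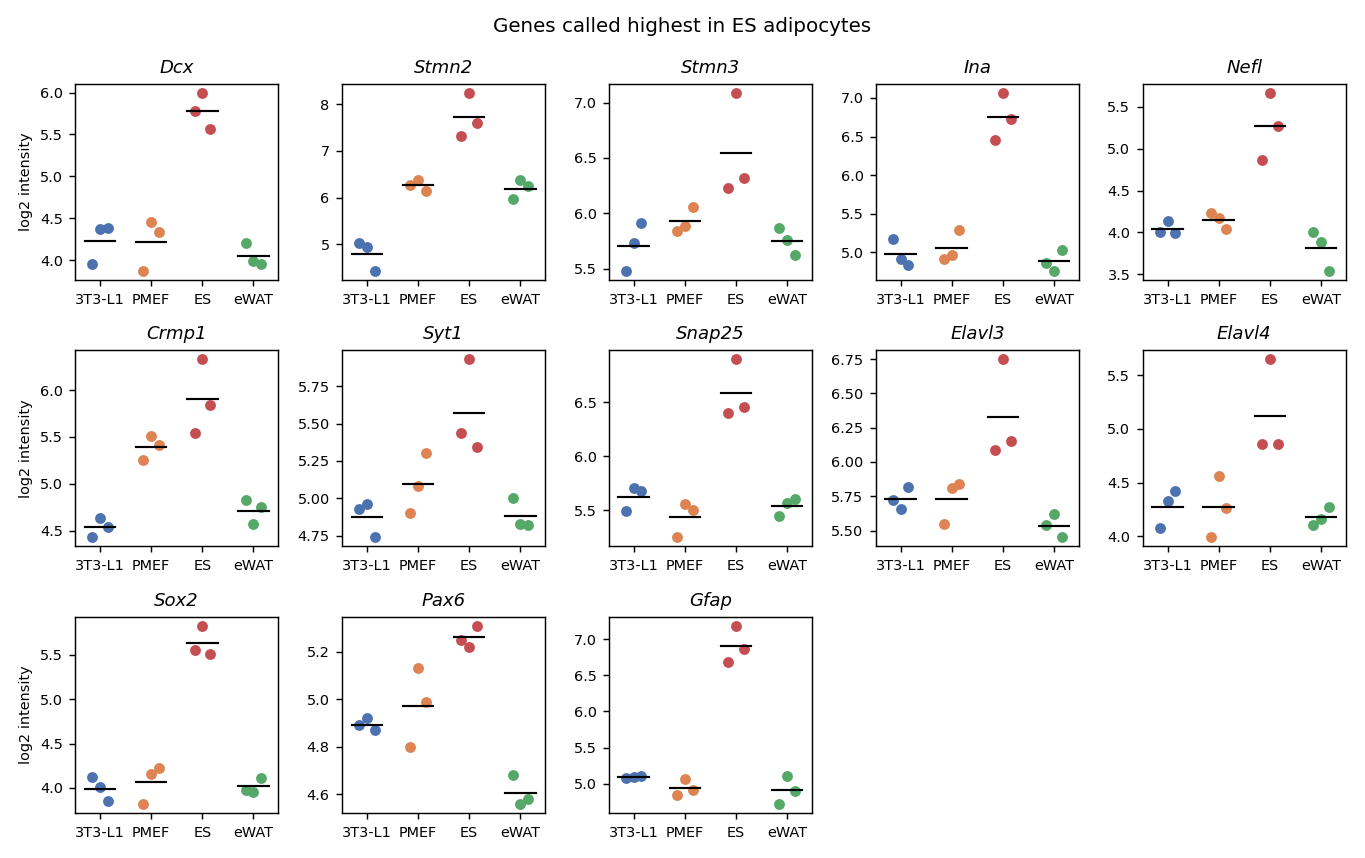
Log2 intensity on each array (points, 3 per group) with the group mean (bar) for the 13 genes called higher in ES adipocytes than in each other group. The vertical axes differ between panels and do not start at 0. For every gene all 3 ES points lie above all 9 others, and ES array 2, the middle point, is the highest in each panel except that of Pax6.

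PMEF adipocytes shared some of these genes. Map2, which bundles microtubules in dendrites, was at 6.61, 6.41 and 6.51 in PMEF and at 6.50, 7.29 and 6.76 in ES adipocytes, so the groups overlapped. Both lay over 3T3-L1, at 5.03, 5.13 and 5.30, and eWAT, at 5.36, 5.37 and 5.35. The rise over eWAT was 1.49 ± 0.15 in ES adipocytes, 1.27 without ES array 2, and 1.15 ± 0.15 in PMEF adipocytes. Between the cultures the difference was 0.34 ± 0.15 (adjusted p = 0.0866), and 0.12 without ES array 2 (adjusted p = 0.397). Gap43, a growth cone protein, rose by 1.0 ± 0.17 in ES and 0.74 ± 0.17 in PMEF adipocytes over eWAT, and by 0.84 in ES adipocytes without ES array 2. The collapsin response mediators Crmp1 and Dpysl3, which act in axon guidance, parted: Crmp1 rose by 1.19 ± 0.16 in ES (0.97 without ES array 2) and 0.68 ± 0.16 in PMEF adipocytes, whereas Dpysl3 rose by 0.67 ± 0.15 in PMEF adipocytes and was at 0.05 ± 0.15 in ES adipocytes (adjusted p = 0.83). Dpysl3 was called highest in PMEF and lowest in 3T3-L1 adipocytes, with means of 8.17 and 6.61.

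The synaptic genes did not move as 1 group. Snap25, which drives fusion of vesicles with the membrane, was at 6.40, 6.90 and 6.46 in ES adipocytes and between 5.25 and 5.71 on all other arrays. It rose by 1.04 ± 0.13 over eWAT (adjusted p = 1.01e-05), and by 0.89 without ES array 2. Syt1, the calcium sensor of release, rose by 0.69 ± 0.14, or 0.51 without that array, to a mean over the receptor line in ES adipocytes only. Syp, an abundant vesicle membrane protein, ran the other way. It was at 7.16, 6.58 and 6.66 in eWAT, 5.86, 6.11 and 5.91 in ES, 5.70, 5.61 and 5.35 in 3T3-L1 and 5.44, 5.34 and 5.76 in PMEF adipocytes. Tissue was the highest for Syp, above each culture without overlap, and ES adipocytes differed from it by -0.84 ± 0.15 (adjusted p = 0.000431). Syp was called higher in ES than in 3T3-L1 and PMEF adipocytes, and neither call held without ES array 2 (adjusted p = 0.151 and 0.111).

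Of the RNA-binding proteins that mark neurons, Elavl3 and Elavl4 rose by 0.79 ± 0.14 and 0.94 ± 0.19 in ES adipocytes over eWAT, and by 0.58 and 0.68 without ES array 2. Rbfox3, the splicing factor detected by the NeuN antibody in mature neurons, was not called in any of the 6 comparisons. Its values overlapped between ES adipocytes (5.59, 5.83 and 5.36) and eWAT (5.31, 5.56 and 5.03), at 0.29 ± 0.15 (adjusted p = 0.122). That difference passed without ES array 3 (0.41, adjusted p = 0.048) or without eWAT array 2 (0.42, adjusted p = 0.0377). Over 3T3-L1 adipocytes it was 0.37 ± 0.15 (adjusted p = 0.0585), and several settings, among them the fit to only the arrays compared (0.0263), took it past the threshold. Uchl1, a ubiquitin hydrolase abundant in neurons, was called highest in PMEF adipocytes, at 6.90, 6.54 and 6.63. It was called lowest in 3T3-L1 adipocytes, at 4.81, 5.15 and 5.34, and ES adipocytes and eWAT were not told apart (0.16 ± 0.16, adjusted p = 0.447).

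**Figure D3:**
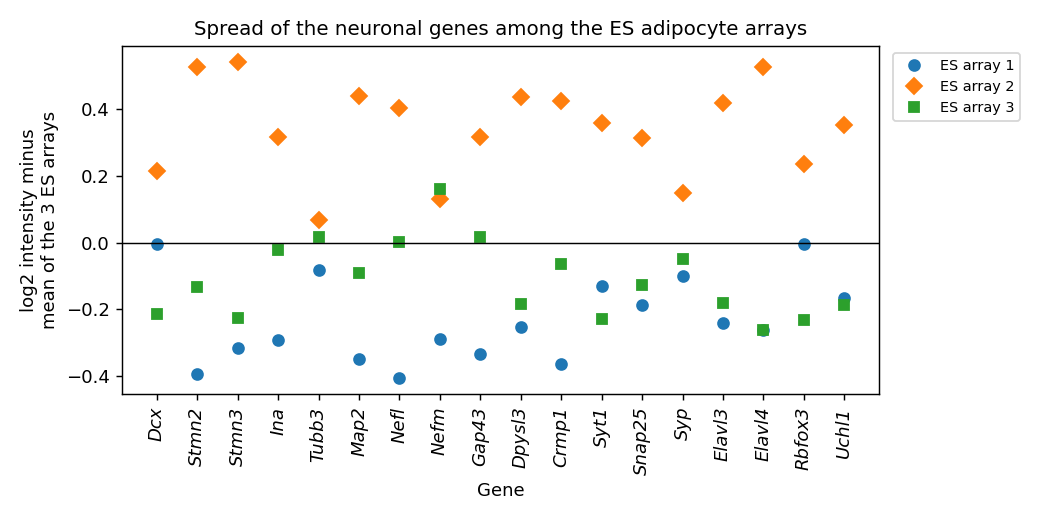
Log2 intensity of the 18 neuronal genes on each ES adipocyte array, as the difference from the mean of the 3 ES arrays. ES array 2 (diamonds) lies above the others for 17 of the 18 genes, and for Nefm array 3 does.

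The neuronal genes moved together among the ES arrays. The log2 intensity of ES array 2 was above the mean of ES arrays 1 and 3 for all 18 neuronal genes, by a median of 0.54, where the median over all genes was 0.00. The excess was 0.79 for Stmn2 and for Elavl4 and 0.82 for Stmn3, values above 99.9% of all genes, and 0.10 for Tubb3. Among the glial genes Gfap had an excess of 0.42. Among the progenitor genes Sox2 and Nes had 0.30 each, close to the 0.33 of Dcx, while Pax6 was at -0.06 and Olig2 at -0.26. The glial genes Scn7a and Cdh19 were at 0.07 and -0.08. ES arrays 1 and 3 lay over every array of the other groups for each of the 13 genes called highest in ES adipocytes. That is no separate support, since these genes were picked with those arrays included. The margin was small for Crmp1, at 5.54 on ES array 1 and 5.51 on PMEF array 2. For Syt1 it was small too, at 5.34 on ES array 3 and 5.30 on PMEF array 3.

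Against the other cultures, ES adipocytes had 25 of the 33 genes called higher and 2 lower than 3T3-L1 adipocytes, where 20.4% and 23% of all genes were. Of the 33, 12 rose at least 2-fold and none fell so far, against 5.33% and 2.81%. Against PMEF adipocytes 17 were called higher and 4 lower, where 23.6% and 19% of all genes were, and 8 rose and none fell at least 2-fold, against 2.54% and 4.17%. Without ES array 2 the counts called higher and lower were 22 and 1 against 3T3-L1 and 12 and 3 against PMEF adipocytes. The median differences were 0.76 and 0.34, and -0.02 over all genes in both. These comparisons share the ES arrays. Centring each array on its median moves the median difference of all genes from -0.02 to -0.23 between ES and 3T3-L1 adipocytes, and the small rise of Tubb3, 0.20 ± 0.07, then becomes -0.005.

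The neural adhesion molecules parted, with Ncam1 called highest and L1cam lowest in PMEF adipocytes. Ncam1, the neural cell adhesion molecule, is also made by muscle precursors and other mesenchymal cells. It was at 8.68, 8.53 and 8.32 in PMEF, 7.55, 7.90 and 7.50 in ES, 6.94, 7.17 and 7.0 in 3T3-L1 adipocytes and 6.36, 6.58 and 6.40 in eWAT. No groups overlapped, and each neighbouring pair differed by the test, by 0.59 ± 0.12 for 3T3-L1 adipocytes over eWAT (adjusted p = 0.00088), 0.62 ± 0.12 for ES over 3T3-L1 and -0.86 ± 0.12 for ES relative to PMEF adipocytes. PMEF adipocytes were 4.17-fold over eWAT. Of 12 skeletal muscle markers, 3 rose and none fell in PMEF adipocytes against eWAT, where 24.7% and 21.6% of all genes did, none of them 2-fold, and Myod1 and Myog were at 5.64 and 5.17. L1cam, the adhesion molecule of growing axons, was at 6.81, 6.76 and 6.78 in 3T3-L1 adipocytes, 5.99, 6.38 and 6.60 in eWAT, 5.84, 6.27 and 5.82 in ES and 5.18, 5.27 and 5.71 in PMEF adipocytes. It was the only 1 of the 33 genes called highest in 3T3-L1 adipocytes, where 14.5% of all genes were. That call rested on a rise of 0.46 ± 0.17 over eWAT (adjusted p = 0.0321) and was lost on leaving out any of the 3 3T3-L1 arrays, or eWAT array 1 or 2. L1cam was called lowest in PMEF adipocytes, and this was lost without ES array 2 (adjusted p = 0.0586).

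PMEF adipocytes against eWAT had 9 of the 33 genes called higher, where 24.7% of all genes were, and 6 lower, where 21.6% were. The rises were those of Tubb3, Map2, Gap43, Dpysl3, Crmp1, Uchl1, Ncam1, Pax6 and Neurog2, of which only Map2 and Ncam1 reached 2-fold, where 4.92% of all genes did. Of the 6 that fell, 5 did so at least 2-fold, against 5.46%. The comparisons with eWAT share its arrays. Against 3T3-L1 adipocytes, PMEF adipocytes had 11 called higher and 1, L1cam, called lower, where 22.3% and 27.8% of all genes were. Here Stmn2, Dpysl3, Uchl1 and Ncam1 rose by 1.47, 1.56, 1.58 and 1.47, Map2 by 1.36 and Scn7a by 3.92. At least 2-fold, 6 rose and 1 fell, against 7.32% and 5.21% of all genes. 3T3-L1 adipocytes against eWAT had 3 called higher, Ncam1, L1cam and Pax6, where 30.8% of all genes were, and 8 called lower, where 22.5% were. None rose and 6 fell at least 2-fold, against 6.05% and 8.49% of all genes. With arrays centred on their medians the number called higher was 13, and that setting moves the median difference of all genes from 0.05 to 0.26.

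**Figure D4:**
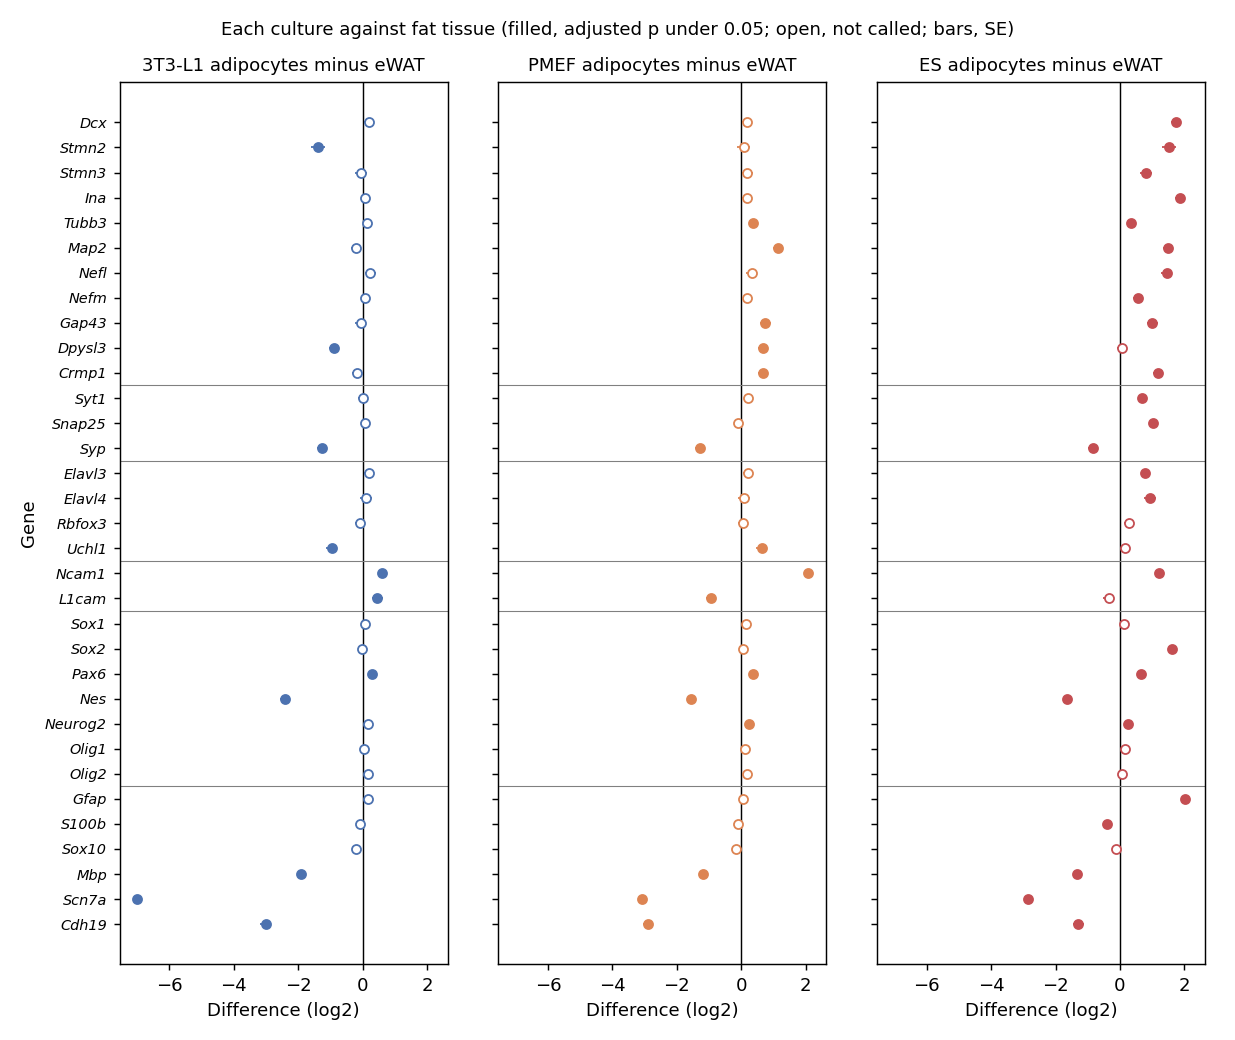
Difference of each culture from eWAT for the 33 genes (log2, points with SE, 3 arrays per group). Filled points passed the test and open points did not. The ES panel lies right of 0 for most neuronal genes, and all 3 panels lie left of 0 for Syp, Nes, Mbp, Scn7a and Cdh19.

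Of the 7 progenitor genes, Sox2, Pax6 and Neurog2 were called higher and Nes lower in ES adipocytes than in eWAT, where 28.8% and 20.9% of all genes were. Sox2, a factor of neural progenitors and of pluripotent cells, was at 5.55, 5.83 and 5.51 in ES adipocytes and between 3.82 and 4.23 on the other 9 arrays, under the receptor line. The rise over eWAT was 1.62 ± 0.12 (adjusted p = 9.11e-08), and 1.52 without ES array 2, a rough size since eWAT lies in the receptor range. Of the pluripotency genes measured beside it, Pou5f1 was under the receptor line in all groups, at 4.21 in ES and 4.29 in PMEF adipocytes. Nanog was at 5.40 and 5.35 in the same groups, and neither differed between them by the test (adjusted p = 0.54 and 0.628). Both were called higher in ES adipocytes than in eWAT, Pou5f1 by 0.57 ± 0.10 and Nanog by 0.21 ± 0.08 (adjusted p = 0.000291 and 0.0385). Over 3T3-L1 adipocytes the rises were 0.30 ± 0.10 and 0.34 ± 0.08 (adjusted p = 0.0273 and 0.00313). Of the 8 pluripotency markers, 4 rose and 1 fell in ES adipocytes against eWAT, where 28.8% and 20.9% of all genes did, none 2-fold. Beside Pou5f1 and Nanog, Dppa5a rose by 0.81 ± 0.2 and Tdgf1 by 0.41 ± 0.14, and Klf4 fell by 0.98 ± 0.1. Zfp42, Utf1 and Esrrb were not called. Against 3T3-L1 adipocytes 4 rose and 1 fell, where 20.4% and 23% of all genes did. Against PMEF adipocytes none rose and Klf4 alone fell, by 1.17 ± 0.1, where 23.6% and 19% of all genes rose and fell.

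Pax6, a factor of cortical and eye progenitors, was at 5.25, 5.22 and 5.31 in ES adipocytes, over all other arrays, but by 0.65 ± 0.08 over eWAT and 0.29 ± 0.08 over PMEF adipocytes, and by 0.67 and 0.31 without ES array 2. Sox1, the earliest neuroectoderm factor among them, was at group means of 6.95 to 7.09 and passed no comparison, and neither did Olig1 or Olig2, factors of the oligodendrocyte lineage. Neurog2, which starts neurogenesis, rose by 0.24 ± 0.07 in ES and in PMEF adipocytes over eWAT. Nes, the intermediate filament nestin of neural stem cells, is also made by vessel cells and muscle precursors. It was highest in the tissue, at 7.29, 6.83 and 6.73 in eWAT, against 5.17, 5.5 and 5.24 in ES, 5.30, 5.37 and 5.5 in PMEF and 4.75, 4.38 and 4.49 in 3T3-L1 adipocytes. ES and PMEF adipocytes overlapped, and differed from eWAT by -1.64 ± 0.14 (-1.74 without ES array 2) and -1.56 ± 0.14. All 8 endothelial markers fell at least 2-fold in each culture against eWAT. Of all genes, 5.86% did in ES, 5.46% in PMEF and 8.49% in 3T3-L1 adipocytes. The 8 markers had a mean log2 intensity of 9.26 to 9.60 on the eWAT arrays and 5.09 to 5.44 on the others. Their part in the level of Nes was not tested.

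Of the 6 glial genes, Mbp, Scn7a and Cdh19 were called highest in eWAT, where 10.7% of all genes were. Gfap was called highest and S100b lowest in ES adipocytes, where 6.15% and 3.36% of all genes were, and Sox10 passed no comparison. Gfap, the intermediate filament of astrocytes and of some Schwann cells, was at 6.68, 7.19 and 6.87 in the ES arrays. It was at 5.08, 5.09 and 5.10 in 3T3-L1, 4.84, 5.07 and 4.91 in PMEF adipocytes and 4.72, 5.10 and 4.90 in eWAT, all under the receptor line by group mean. The rise over eWAT was 2.01 ± 0.12 (adjusted p = 1.75e-08), and 1.87 without ES array 2, and with eWAT in the receptor range its size is rough. Gfap did not differ by the test among the other groups, where the largest difference was 0.18 ± 0.12.

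Scn7a, a sodium channel gene of Schwann cells and sensory neurons that responds to extracellular sodium, had the widest range of all 33. It was at 10.95, 10.98 and 10.97 in eWAT, 8.06, 8.15 and 8.10 in ES, 7.86, 7.80 and 8.0 in PMEF and 3.91, 4.11 and 3.88 in 3T3-L1 adipocytes. Tissue was highest and 3T3-L1 adipocytes lowest, with ES and PMEF adipocytes close together between them. ES adipocytes differed from eWAT by -2.86 ± 0.08 and PMEF adipocytes by -3.08 ± 0.08 (7.27-fold and 8.45-fold lower). 3T3-L1 adipocytes differed from it by -7.0 ± 0.08, and since that group lies in the receptor range the size is rough. ES and PMEF adipocytes differed by 0.22 ± 0.08 (adjusted p = 0.0374), a call lost without ES array 2 (0.115).

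Cdh19, a cadherin of Schwann cells and their precursors, was at 5.71, 6.31 and 6.42 in eWAT and 4.72, 4.81 and 5.05 in ES adipocytes. It was at 3.00 to 3.36 in 3T3-L1 and PMEF adipocytes, which overlapped. The ES mean of 4.86 was still under the receptor line. ES adipocytes were at -1.29 ± 0.16 relative to eWAT and 1.62 ± 0.16 over PMEF adipocytes (adjusted p = 1.51e-05 and 2.52e-06), and at -1.26 and 1.64 without ES array 2. Mbp, the myelin basic protein gene, whose other transcripts are made outside glia, was at 7.44, 7.58 and 7.71 in eWAT, and every culture was lower, with differences of -1.33 ± 0.08 in ES, -1.19 ± 0.08 in PMEF and -1.92 ± 0.08 in 3T3-L1 adipocytes. Sox10, a glial factor found in Schwann cells among others, passed no comparison, with group means of 6.05 to 6.25. S100b, a calcium-binding protein of glia and of fat cells, was called lowest in ES adipocytes, at -0.39 ± 0.11 relative to eWAT. That call was lost on leaving out any 1 of 9 of the 12 arrays, ES array 2 among them.

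**Figure D5:**
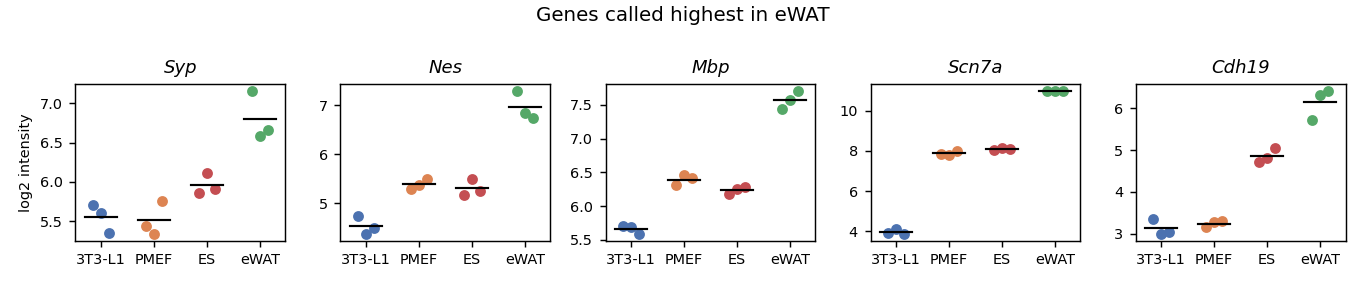
Log2 intensity on each array (points, 3 per group) with the group mean (bar) for the 5 genes called higher in eWAT than in each culture. The vertical axes differ between panels and do not start at 0. Scn7a spans 3.97 to 10.97 between group means, and Syp the least.

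Other nervous system genes were listed by function. Of 55 further neuronal genes measured, 28 rose and 3 fell in ES adipocytes against eWAT, with a median of 0.28, and 8 rose at least 2-fold, where 28.8%, 20.9% and 4.39% of all genes did. Against PMEF adipocytes 18 rose and 7 fell, where 23.6% and 19% of all genes did. At least 2-fold, 9 rose and 4 fell, against 2.54% and 4.17% of all genes. In ES adipocytes over eWAT, the axon adhesion molecules Cntn1 and Nrcam rose by 2.32 ± 0.10 and 2.15 ± 0.12. The factor Sox11 of young neurons rose by 1.87 ± 0.18 and the axonal motor Kif1a by 1.54 ± 0.12, while Syn2, a synapsin, fell by 1.11 ± 0.12. Kif1a was higher still in PMEF adipocytes, with a mean of 8.31 against 6.82. It is 1 of 4 further neuronal genes that fell at least 2-fold in ES against PMEF adipocytes, by 1.49 ± 0.12. The others were Thy1, a surface glycoprotein of neurons and fibroblasts (-2.98 ± 0.06), the tubulin Tuba1a (-1.38 ± 0.09) and the microtubule kinase Dclk1 (-1.18 ± 0.14). The 4 largest rises over PMEF adipocytes were those of Sox11 (1.75 ± 0.18), Chl1 (1.7 ± 0.17), Cntn1 (1.59 ± 0.1) and Scg3 (1.44 ± 0.13). Scg3 was under the receptor line in both groups. Of 22 further progenitor genes, 11 rose and 2 fell in ES adipocytes against eWAT, where 28.8% and 20.9% of all genes did, and 6 rose and 5 fell against PMEF adipocytes, where 23.6% and 19% did. Fabp7, the fatty acid binding protein of radial glia, was at 10.59, 11.22 and 10.86 in ES adipocytes and at 4.83 to 6.45 on all other arrays, a rise of 4.83 ± 0.17 over eWAT (adjusted p = 9.29e-11). Over eWAT, the factors Zic2 and Zic1 rose by 2.09 ± 0.13 and 1.53 ± 0.09 and the RNA-binding protein Msi1 by 1.33 ± 0.10, and Notch1, a receptor gene that also acts in vessels, fell by 1.36 ± 0.06.

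Of 23 further glial genes, 4 rose and 12 fell in ES adipocytes, 4 rose and 12 fell in PMEF and 1 rose and 17 fell in 3T3-L1 adipocytes, each against eWAT. The shares of all genes that rose and fell were 28.8% and 20.9%, 24.7% and 21.6%, and 30.8% and 22.5% in these comparisons. Aqp4, the water channel of astrocytes, rose by 1.18 ± 0.11 in ES adipocytes, to a mean of 5.33. Kcna1, a potassium channel of axons, fell by 1.34 ± 0.19 in ES and 1.60 ± 0.19 in PMEF adipocytes. Aldh1l1, an enzyme used to mark astrocytes, and Slc1a3, a glutamate transporter, fell by 1.97 ± 0.09 and 1.83 ± 0.11 in ES adipocytes. Gpm6b, a membrane protein related to the proteolipid of myelin, was at 9.90 in PMEF, 8.57 in ES, 8.18 in eWAT and 5.08 in 3T3-L1 adipocytes. Among 6 melanocyte markers, another neural crest fate, none rose in ES adipocytes against any group. Of all genes, 28.8%, 20.4% and 23.6% rose against eWAT, 3T3-L1 and PMEF adipocytes, so 6 markers say little. In the same comparisons 1, 1 and 3 markers fell, where 20.9%, 23% and 19% of all genes did. Mlana, at a mean of 7.78 in 3T3-L1 adipocytes, fell by 2.09 ± 0.1 against that group.

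Rest, the repressor of neuronal genes, was measured in every group, with means of 7.55 in eWAT, 7.90 in ES, 7.97 in PMEF and 8.17 in 3T3-L1 adipocytes. It was 0.35 ± 0.09 higher in ES adipocytes than in eWAT (adjusted p = 0.00454) and did not differ by the test from PMEF adipocytes (-0.07 ± 0.09, adjusted p = 0.561). Rest was also higher than in eWAT in PMEF and 3T3-L1 adipocytes, by 0.42 ± 0.09 and 0.62 ± 0.09 (adjusted p = 0.0014 and 3.64e-05). Its cofactor gene Rcor2 rose over eWAT in each culture, by 1.75 ± 0.14 in ES, 1.28 ± 0.14 in 3T3-L1 and 0.55 ± 0.14 in PMEF adipocytes. Ctdspl, a phosphatase of the same complex, fell in each, by 1.35 ± 0.08, 1.96 ± 0.08 and 1.17 ± 0.08. Of the 12 genes listed for Rest and its complex, 6 rose and 4 fell in ES adipocytes against eWAT, where 28.8% and 20.9% of all genes did. In PMEF adipocytes 6 rose and 2 fell, against 24.7% and 21.6%, and in 3T3-L1 adipocytes 7 rose and 4 fell, against 30.8% and 22.5%.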

How the data were processed

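Transcript levels were measured on Affymetrix arrays, and the deposited table holds log2 intensities for 35556 probe sets on 12 arrays. The array medians were 5.84 to 5.98 over all probe sets. Over the genes analysed they were 6.11 to 6.12 on the 3T3-L1 arrays and 6.31 to 6.35 on the others. No label states a normalization. Per the labels' protocols, RNA was extracted with TRIzol and biotinylated cDNA was made with the Ambion WT Expression kit. The method of normalization is not given in the sources used here, and base 2 was read from the values, which run from 1.11 to 13.48. Probe sets with 1 gene symbol (21789) were used, with symbols updated by Entrez ID through a RefSeq table (21698 matched). Genes with several were represented by their brightest probe set on average.

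For 19938 genes, group means were fitted with limma 3.58.1 in R 4.3.3 (8 residual and 4.88 prior degrees of freedom), with Benjamini-Hochberg adjustment over all genes, a threshold of 0.05 and no filter on dim genes. No detection calls were used. The fit was tested on simulated data. The members, lists and tests were chosen with earlier results of these data known. All members could be named, and of each further list up to 4 rises and 4 falls, the largest among 2-fold calls, the marker lists where they are set beside a member, and Rest.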

Additional observations from a re-analysis of the deposited data

How the results depend on the processing

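Leaving out 1 array in turn gave 19 to 20 genes called higher and 6 to 7 lower for ES adipocytes against eWAT, 22 to 26 and 1 to 2 against 3T3-L1, and 12 to 18 and 2 to 4 against PMEF adipocytes. It gave 8 to 9 and 6 to 7 for PMEF adipocytes against eWAT, 2 to 3 and 8 to 9 for 3T3-L1 adipocytes against eWAT, and 10 to 11 and 1 to 1 for PMEF against 3T3-L1 adipocytes. Genes called highest numbered 11 to 15 in ES, 5 to 5 in eWAT, 2 to 3 in PMEF and 0 to 1 in 3T3-L1 adipocytes, and genes called lowest 0 to 1 in ES, 0 to 1 in PMEF, 6 to 6 in 3T3-L1 adipocytes and 2 to 2 in eWAT. Leaving out the lowest tercile of genes by mean keeps 19 of the 33, and gave 9 higher in ES adipocytes against eWAT, 16 higher and 1 lower against 3T3-L1, 9 higher against PMEF adipocytes, 5 higher in PMEF adipocytes against eWAT, and 6 highest and 0 lowest in ES adipocytes, with fewer genes tested. Quantile normalization and median centring gave 8 and 13 genes called higher in 3T3-L1 adipocytes against eWAT, 3 and 3 called lower in PMEF against 3T3-L1 adipocytes, 4 and 4 lowest in eWAT and 0 and 0 lowest in ES adipocytes. Median centring turned Tubb3 in ES against 3T3-L1 adipocytes to -0.005 (adjusted p = 0.954). With a trended and robust variance 1 gene was called lower in ES against 3T3-L1 adipocytes, and with that variance, or with only the arrays compared, 0 were lowest in ES adipocytes. A test against a 2-fold change (limma treat) gave 4 higher and 3 lower for ES adipocytes against eWAT, 8 and 0 against 3T3-L1, 4 and 0 against PMEF adipocytes, 1 and 3 for PMEF adipocytes against eWAT, 0 and 4 for 3T3-L1 adipocytes against eWAT and 4 and 0 for PMEF against 3T3-L1 adipocytes. Under it 3 genes were highest in ES adipocytes, 2 in eWAT, and 0 in PMEF and 3T3-L1 adipocytes, and 1 was lowest in 3T3-L1 adipocytes and 0 in each other group. The line at the 99th percentile of receptor genes left 15 genes in ES, 8 in PMEF and 5 in 3T3-L1 adipocytes. The labels do not say that replicate numbers pair samples, and deviations of same-numbered arrays correlated at -0.137 to 0.108 over genes, with 1 of 18 pairs above 0.1. With the replicate block the counts of higher and lower calls were 19 and 6, 24 and 2, and 16 and 4 for ES adipocytes against eWAT, 3T3-L1 and PMEF adipocytes, and 9 genes were called lower in 3T3-L1 adipocytes against eWAT. The cause of these changes was not tested beyond what each setting does by construction.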
